A study of Mus musculus with 19 samples.

Results

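The genes described here are 8 genes of lymphocyte traffic: the chemokine receptor genes Cxcr4, Cxcr3, Ccr2, Ccr7 and Cx3cr1, the sphingosine-1-phosphate receptor genes S1pr1 and S1pr5, and Klf2, which encodes a transcription factor. They were taken by symbol from the platform's probe-set annotation, using probe sets with 1 symbol and the brightest probe set per gene, and all 8 were found among the 19752 genes measured. The samples were natural killer (NK) cells of the spleen, lymphocytes that kill infected or transformed cells. They came from male C57BL/6 mice aged 6 weeks, were enriched by negative selection (antibodies that remove other cells) and are labelled with the marker NK1.1. RNA of each of the 19 samples was hybridised to an Affymetrix Mouse Gene 1.0 ST array. Cells with IL-2 (interleukin-2) at 250 U/ml for 8 h received a JAK1 inhibitor at 0.0625 µM (1 sample), 0.25 µM (2), 1 µM (2) or 4 µM (1), a JAK3 inhibitor at 0.25, 1 or 4 µM (2 each), or no inhibitor (4). Untreated cells, without IL-2 or inhibitor, made up 3 samples, of which 2 have the 8 h culture in their titles. Both inhibitors are known only by code numbers in the labels, and no vehicle is named for any group. The labels do not say whether replicates came from separate mice or cultures, so the p-values cover the spread from sample to sample alone, and that spread may be technical.

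The IL-2 receptor of NK cells signals through the kinases JAK1, bound to its beta chain, and JAK3, bound to the common gamma chain. Chemokine receptors are G protein-coupled receptors that steer cells toward the source of their ligand: CXCR4 binds CXCL12 and holds cells in bone marrow, CXCR3 binds the interferon-induced CXCL9, CXCL10 and CXCL11 and brings cells to inflamed tissue, CCR2 binds CCL2, CCR7 binds CCL19 and CCL21 and guides cells to the T cell zones of lymphoid organs, and CX3CR1 binds fractalkine. S1PR1 and S1PR5 sense sphingosine-1-phosphate, which is more abundant in blood and lymph than in tissue, and so draw cells out of organs. In T cells KLF2 activates S1pr1, and in NK cells S1PR5 is required for exit from bone marrow and lymph nodes. Several of these receptors are not specific to NK cells: CCR2 and CX3CR1 are also prominent on monocytes.

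Upstream sequence is shown for members that fell with IL-2 (Cxcr4 and Cx3cr1) and for members that were not called (S1pr5 and Cxcr3), so that the windows can be set side by side. It is the run of 250 bases before the gene's start, from RefSeq on GRCm38.p6, 5′ to 3′ on the gene's own strand. The table held 6 of the 8 members, and S1pr1 and Ccr7 were not matched. Capitals mark CACCC, the core bound by KLF factors, or its reverse complement GGGTG.
Cxcr4, chr1:128592300-128592549, minus strand: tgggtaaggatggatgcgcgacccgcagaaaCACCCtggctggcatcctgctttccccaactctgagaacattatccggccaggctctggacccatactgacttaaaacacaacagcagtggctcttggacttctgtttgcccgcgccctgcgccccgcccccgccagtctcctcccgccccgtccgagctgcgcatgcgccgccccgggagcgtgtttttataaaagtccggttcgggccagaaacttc
Cx3cr1, chr9:120068297-120068546, minus strand: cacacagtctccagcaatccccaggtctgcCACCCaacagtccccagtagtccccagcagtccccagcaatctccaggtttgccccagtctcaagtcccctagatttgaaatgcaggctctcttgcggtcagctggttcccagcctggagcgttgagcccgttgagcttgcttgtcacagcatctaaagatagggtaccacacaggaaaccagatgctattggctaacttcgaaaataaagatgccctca
S1pr5, chr9:21248444-21248693, minus strand: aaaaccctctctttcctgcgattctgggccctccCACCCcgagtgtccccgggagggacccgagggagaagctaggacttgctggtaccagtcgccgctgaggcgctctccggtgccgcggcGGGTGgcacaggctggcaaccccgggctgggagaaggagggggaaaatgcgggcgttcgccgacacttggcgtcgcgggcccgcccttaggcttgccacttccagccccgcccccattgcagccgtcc
Cxcr3, chrX:101734148-101734397, minus strand: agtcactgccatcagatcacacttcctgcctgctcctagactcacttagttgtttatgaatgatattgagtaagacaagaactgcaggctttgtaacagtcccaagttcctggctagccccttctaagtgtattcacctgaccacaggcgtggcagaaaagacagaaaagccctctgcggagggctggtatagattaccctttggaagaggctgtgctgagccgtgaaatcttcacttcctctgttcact
CACCC was found in the windows of Cxcr4, Cx3cr1, S1pr5 and Klf2, and in 52.0% of 32817 RefSeq promoter windows of this length. The STAT motif TTCNNNGAA (7.01% of windows), the FOXO motif GTAAACA (3.16%) and the T-box motif GGTGTGA (3.33%), each searched on both strands, were not found in the windows of the 6 members. A match describes letters and shows no binding, and no match says only that these letters are not in this window. The KLF core stood in windows of members that fell with IL-2 and in that of S1pr5, which was not called.

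The deposited intensities lay on 2 scales that cut across the groups. A high-intensity set of 7 samples had log2 medians of 7.49 to 7.59 and a low-intensity set of 12 samples had log2 medians of 5.70 to 5.90, so intensities are given below by set, and the fit carried a term for the set. The 1 untreated sample of the high-intensity set, replicate 2, is the sample without a culture time in its title. All differences from untreated cells within that set rest on it, and the part of culture time in them was not tested. Set-adjusted values are log2 intensities of the high-intensity samples moved onto the low-intensity scale by each gene's own set term. Log2 differences are given ± standard error, from limma over all 19752 genes, with Benjamini-Hochberg adjusted p and a threshold of 0.05. The number of arrays limits the precision, and no detection values were used. As a check of the treatments, the IL-2 target genes Cish and Socs1, which encode feedback inhibitors of cytokine signalling, were higher in IL-2 than in untreated cells by 2.10 ± 0.14 and 3.01 ± 0.14. Both were lower than with IL-2 alone at every inhibitor dose except 0.0625 µM of the JAK1 inhibitor (-0.61 and -0.74, adjusted p = 0.302 and 0.242).

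Cx3cr1, Cxcr4 and S1pr1 were lower in IL-2 than in untreated cells, at 0.402, 0.487 and 0.527 of the untreated level, and none of the other 5 members passed the threshold. These 3 of 8 members were lower and 0 higher, where 2.59% of all genes were lower and 6.56% higher. The members were chosen with earlier results of these data known, so counts set beside such shares, here and below, are descriptions and no test. The median log2 difference over the 8 members was -0.26, against -0.01 over all genes. Markers of monocytes and macrophages moved with these genes: 12 of 13 were lower with IL-2 (median -1.87), and their summed set-adjusted intensity was 2416 to 2933 in IL-2 samples against 8060 to 9415 in untreated samples. Their part in the result was not tested. In RNA from a whole cell preparation, fewer cells of a type and less RNA per cell cannot be told apart.

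Cxcr4 (probe set 10357472) had intensities of 1745 and 1880 in the IL-2 samples of the high-intensity set, against 3868 in the untreated sample. The low-intensity samples gave 524.8 and 565.1 with IL-2, against 1017 and 1200 in untreated cells. Every IL-2 sample was below every untreated sample of its set. The log2 difference was -1.04 ± 0.11, a fold of 0.487 (adjusted p = 2.475e-06), and it was -1.09 within the high-intensity set and -1.02 within the low-intensity set.

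Cx3cr1 (probe set 10597743), the fractalkine receptor gene, had intensities of 285.3 and 287.7 with IL-2 in the high-intensity set, against 662.2 untreated. Values in the low-intensity set were 66.01 and 62.27 with IL-2, against 159.6 and 186.4 untreated. These IL-2 values, 6.04 and 5.96 on the log2 scale, lay near the medians over all probe sets of their samples (5.72 in both). The groups did not overlap in either set, and this was the largest difference of any member in this comparison, at -1.32 ± 0.14 on the log2 scale (fold 0.402, adjusted p = 1.81e-06). Within the sets it was -1.21 (high) and -1.43 (low).

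S1pr1 (probe set 10501586), the receptor gene for exit toward blood and lymph, had 1112 and 1176 with IL-2 against 2351 untreated in the high-intensity set. It had 324.6 and 357.4 with IL-2 against 578.4 and 662.3 untreated in the low-intensity set. Again the groups did not overlap in either set. The log2 difference was -0.92 ± 0.12 (fold 0.527, adjusted p = 2.835e-05), with -1.04 and -0.86 within the high- and low-intensity sets. Fitted on the low-intensity set only, it had an adjusted p of 0.056.

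Ccr7 (probe set 10390763), the lymph node homing receptor gene, lay just outside the threshold. Its intensities were 2367 and 2516 with IL-2 against 3501 untreated in the high-intensity set, and 1631 and 1625 with IL-2 against 1782 and 2028 untreated in the low-intensity set. The IL-2 samples were below the untreated ones in both sets, by -0.34 ± 0.11 on the log2 scale (adjusted p = 0.0506). The difference passed without untreated replicate 3 (-0.42, adjusted p = 0.0117), after quantile normalization (-0.48, adjusted p = 0.00195) and with the dimmest genes left out of the fit (adjusted p = 0.0261).

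The other 4 members were not called. S1pr5 (probe set 10591494), the second exit receptor gene, had 414.3 and 389.5 with IL-2 against 412.9 untreated in the high-intensity set. Its low-intensity values were 121.6 and 119.4 with IL-2 against 93.1 and 130.1 untreated. The groups overlapped, with a log2 difference of 0.07 and a 95% interval of -0.22 to 0.36. Cxcr3 (probe set 10606058), the receptor gene for interferon-induced chemokines, had 466.5 and 483.9 with IL-2 against 592.3 untreated in the high-intensity set. Low-intensity values were 117.8 and 118.7 with IL-2 against 112.8 and 143.7 untreated. Its IL-2 values were lower in the high-intensity set and lay between the untreated values in the low-intensity set. Ccr2 (probe set 10590631) had 1192 and 1490 with IL-2 against 1817 untreated in the high-intensity set, and 404.8 and 464.5 with IL-2 against 530.4 and 317.8 untreated in the low-intensity set. Klf2 (probe set 10572800), the gene of the transcription factor, had 402.7 and 599.4 with IL-2 against 668.6 untreated in the high-intensity set. The fitted differences were -0.17 for Cxcr3 (interval -0.53 to 0.19), -0.16 for Ccr2 (-0.64 to 0.32) and -0.17 for Klf2 (-0.55 to 0.22). For Ccr2 and Klf2 the sets differed: the log2 differences were -0.45 and -0.44 in the high-intensity set, with 1 untreated sample, and 0.08 and -0.01 in the low-intensity set. Untreated Klf2 intensities of 336 and 209.9 in the low-intensity set spanned both IL-2 values, 287.2 and 242.6.

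**Figure D1:**
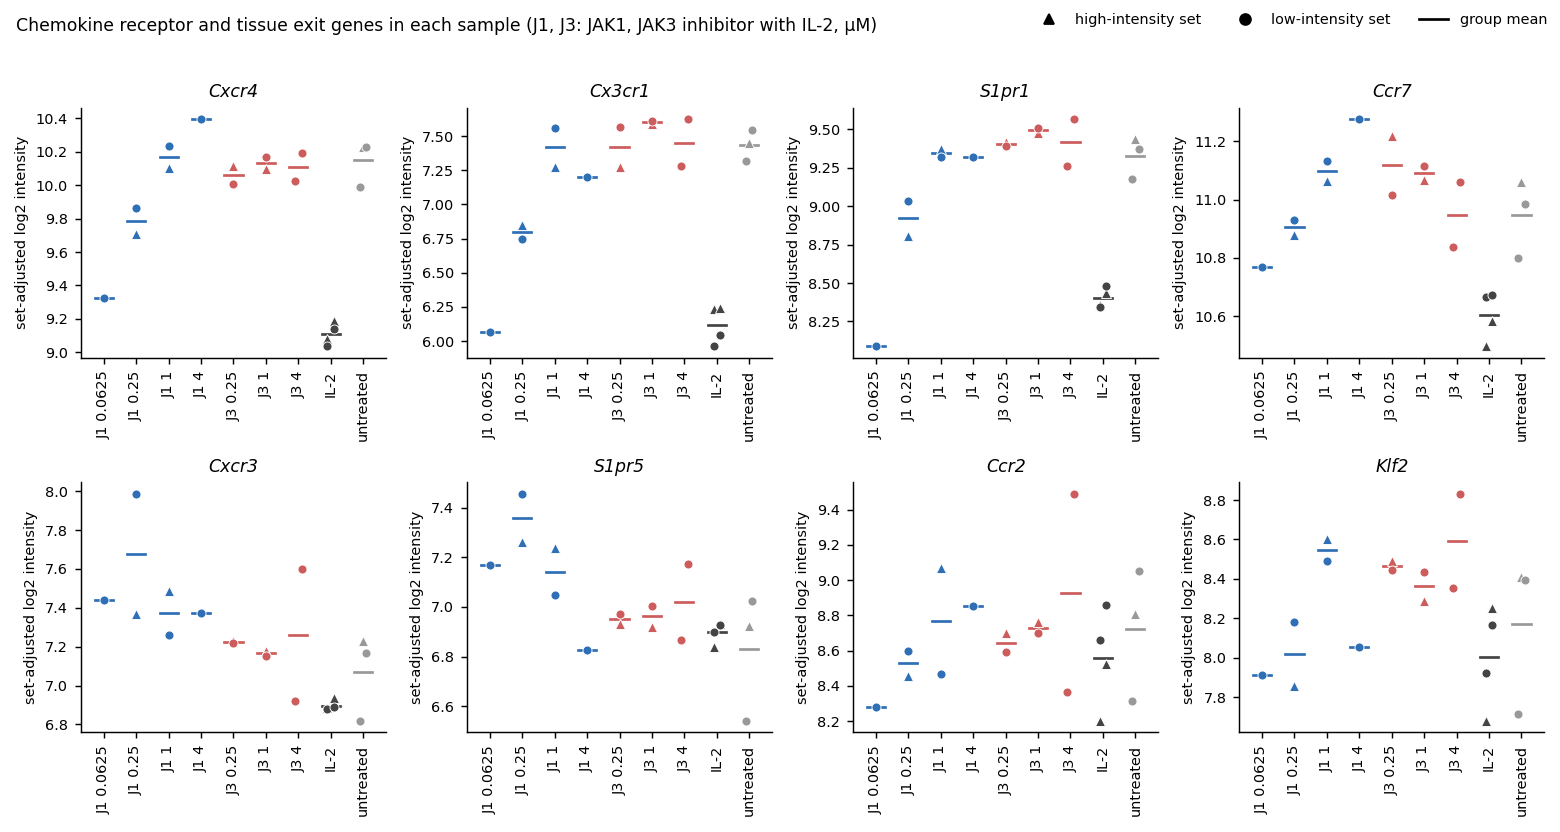
Set-adjusted log2 intensity of the 8 members in each sample, by group, with triangles for the high-intensity set, circles for the low-intensity set and lines for group means. Cxcr4, Cx3cr1 and S1pr1 are low with IL-2 alone (group means 9.11, 6.12 and 8.40) and with the JAK1 inhibitor at 0.0625 µM, and near the untreated level at 1 µM of either inhibitor.

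The JAK3 inhibitor was set against IL-2 alone to ask which members differ under IL-2 when JAK3 is inhibited. Cxcr4, Cx3cr1 and S1pr1 were higher at each of the 3 doses, and Ccr7 at 0.25 and 1 µM. At 0.25 µM 4 of 8 members were higher and 0 lower, where 2.74% of all genes were higher. At 1 µM 4 were higher (2.86% of all genes), and at 4 µM 3 were higher (3.01%). The median member differences were 0.49, 0.42 and 0.48 at 0.25, 1 and 4 µM, against medians of 0.06, 0.02 and -0.04 over all genes. Monocyte and macrophage markers were higher too, in 11, 12 and 11 of 13. Their summed intensities were 7751 to 9563 over the 3 doses, against 2416 to 2933 with IL-2 alone. Markers of other cells moved as well. Of 11 NK cell markers 10, 10 and 7 were lower and 0 higher. Of 12 neutrophil markers 4, 6 and 4 were higher, and of 10 B cell markers 4, 1 and 4. Of 10 dendritic cell markers 2 were higher at each dose, and 0, 1 and 2 lower. Of 11 T cell markers 0 were called. The part of these cells in the result was not tested.

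Cxcr4 had intensities of 3567 (0.25 µM) and 3521 (1 µM) in the high-intensity set, where IL-2 alone gave 1745 and 1880. Its low-intensity values were 1030 at 0.25 µM, 1149 at 1 µM, and 1043 and 1172 at 4 µM, where IL-2 alone gave 524.8 and 565.1. Each inhibitor sample was above each IL-2 sample of its set. The log2 differences were 0.95 ± 0.13, 1.02 ± 0.13 and 1.00 ± 0.13 at 0.25, 1 and 4 µM (adjusted p = 6.41e-05, 1.97e-05 and 3.91e-05).

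Cx3cr1 had 588.2 and 731.7 at 0.25 and 1 µM in the high-intensity set, against 285.3 and 287.7 with IL-2 alone. In the low-intensity set the values were 189.7 at 0.25 µM, 195.4 at 1 µM, and 155.7 and 197.3 at 4 µM, against 66.01 and 62.27 with IL-2 alone. All of these inhibitor values were above those of IL-2 alone in the same set. The fitted differences were 1.30 ± 0.16, 1.48 ± 0.16 and 1.33 ± 0.17.

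S1pr1 had 2324 and 2420 at 0.25 and 1 µM in the high-intensity set, against 1112 and 1176 with IL-2 alone. The low-intensity samples had 670.7, 729.3, and 614.9 and 758 at 0.25, 1 and 4 µM, against 324.6 and 357.4 with IL-2 alone. The groups did not overlap. The log2 differences of 1.00 ± 0.14, 1.09 ± 0.14 and 1.01 ± 0.14 correspond to folds of 2.00, 2.13 and 2.02.

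Ccr7 had 3906 and 3513 at 0.25 and 1 µM of the JAK3 inhibitor in the high-intensity set, against 2367 and 2516 with IL-2 alone. It had 2072, 2220, and 2135 and 1828 at 0.25, 1 and 4 µM in the low-intensity set, against 1631 and 1625 with IL-2 alone. The inhibitor samples were above the IL-2 samples in both sets. Ccr7 was higher by 0.51 ± 0.12 at 0.25 µM and 0.49 ± 0.12 at 1 µM (adjusted p = 0.0142 and 0.0159), and gave 0.34 ± 0.13 at 4 µM (adjusted p = 0.12). Each of the called differences needed both samples of its dose. The calls were also lost with the intensity set as a random block (adjusted p = 0.363 and 0.314). Without replicate 1 or 2 the adjusted p was 0.355 and 0.0682 at 0.25 µM, and 0.137 and 0.243 at 1 µM. Klf2 had 707.8 and 614 at 0.25 and 1 µM in the high-intensity set, against 402.7 and 599.4 with IL-2 alone. It had 347.9, 346.4, and 327.3 and 455.6 at 0.25, 1 and 4 µM in the low-intensity set, against 242.6 and 287.2 with IL-2 alone. All 6 JAK3 inhibitor samples were above the IL-2 samples of their set, but the differences of 0.46, 0.36 and 0.59 did not pass (adjusted p = 0.327, 0.547 and 0.12). After quantile normalization Klf2 passed at 0.25 µM (0.45, adjusted p = 0.036) and 4 µM (0.65, adjusted p = 0.00362).

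S1pr5 gave 0.05, 0.06 and 0.12 and Cxcr3 0.33, 0.27 and 0.36 at the 3 doses, none of them called. Ccr2, a receptor gene of inflammatory monocytes, gave 0.08, 0.17 and 0.37. Its samples at 4 µM were far apart, with intensities of 719.1 (replicate 1) and 329.6 (replicate 2), and without replicate 2 the difference passed the threshold (0.93, adjusted p = 0.0399). None of the 8 members changed with dose by the slope over the JAK3 inhibitor doses, where 0.152% of all genes did, and 0 members had an unadjusted p under 0.05 in limma.

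The JAK1 inhibitor was set against IL-2 alone likewise, over a dose series that started lower. At 0.0625 µM, in 1 sample assumed to vary like the others, 0 of 8 members were called by limma (1 at an unadjusted p under 0.05, Cxcr3), and 0.0203% of all genes were. At 0.25 µM Cxcr4, Cx3cr1 and Cxcr3 were higher, 3 of 8 members, where 0.729% of all genes were higher. At 1 µM Cxcr4, Cx3cr1, S1pr1 and Ccr7 were higher (2.85% of all genes), and the same 4 genes were higher in the 1 sample at 4 µM (1.14%). No member was called lower at any of these doses. The median differences of the members were 0.05, 0.49, 0.52 and 0.57 from 0.0625 to 4 µM, against 0.08, 0.05, 0.08 and -0.10 over all genes.

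Monocyte and macrophage markers were also nearest to IL-2 alone at 0.0625 µM. Their summed intensity was 3699 at 0.0625 µM, 4991 to 5280 at 0.25 µM, 7834 to 8705 at 1 µM and 8558 at 4 µM, against 2416 to 2933 with IL-2 alone. Of the 13 markers 0, 6, 10 and 10 were higher at these doses. Of 11 NK cell markers 0, 0, 7 and 6 were lower and 0 higher. Of 12 neutrophil markers 0, 1, 5 and 5 were higher, and of 10 B cell markers 0, 0, 2 and 1. Of 10 dendritic cell markers 0, 1, 2 and 1 were higher and 0, 0, 1 and 1 lower. Of 11 T cell markers 0 were called. The part of these cells in the members' values was not tested.

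Cxcr4 had 2687 and 3545 at 0.25 and 1 µM in the high-intensity set, where IL-2 alone gave 1745 and 1880. In the low-intensity set it had 640.1 at 0.0625 µM, 931.4 at 0.25 µM, 1203 at 1 µM and 1346 at 4 µM, where IL-2 alone gave 524.8 and 565.1. The intensity was higher at each higher dose within both sets. The log2 differences against IL-2 alone were 0.21 ± 0.17, 0.67 ± 0.13, 1.06 ± 0.13 and 1.28 ± 0.17, with adjusted p of 0.63, 0.00618, 1.51e-05 and 7.18e-05.

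Cx3cr1 had 437.3 and 588.2 at 0.25 and 1 µM in the high-intensity set, against 285.3 and 287.7 with IL-2 alone. In the low-intensity set it had 66.96, 107.6, 189.2 and 147.5 from 0.0625 to 4 µM, against 66.01 and 62.27 with IL-2 alone. The 0.0625 µM sample was close to IL-2 alone and the 4 µM sample was below the 1 µM sample. The fitted differences were -0.06 ± 0.21, 0.68 ± 0.16, 1.30 ± 0.16 and 1.08 ± 0.21.

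S1pr1 had 1524 and 2248 at 0.25 and 1 µM in the high-intensity set, against 1112 and 1176 with IL-2 alone. In the low-intensity set the values were 272, 523.7, 638.9 and 639.7 from 0.0625 to 4 µM, against 324.6 and 357.4 with IL-2 alone. At 0.0625 µM S1pr1 was thus below both IL-2 samples of its set, with a difference of -0.32 that did not pass (adjusted p = 0.496). The differences were 0.52 ± 0.14 at 0.25 µM (adjusted p = 0.0558), 0.94 ± 0.14 at 1 µM (adjusted p = 0.000165) and 0.92 ± 0.18 at 4 µM (adjusted p = 0.00479). The difference at 0.25 µM passed with only the groups compared (adjusted p = 0.00879), after quantile normalization (0.00107), with the dimmest genes left out (0.0405) and without the intensity trend (0.0447).

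The calls at 0.25 µM rested on few samples. Cxcr4 lost its call without replicate 1 or 2 of the dose (adjusted p = 0.0582 and 0.259), and Cx3cr1 lost it without either of these (adjusted p = 0.346 and 0.258) or with IL-2 replicate 3 or 4 left out (adjusted p = 0.0994 and 0.108). Cxcr3, the receptor gene for CXCL9 and CXCL10, had 653.6 in the high-intensity set, against 466.5 and 483.9 with IL-2 alone. It had 253.6 in the low-intensity set, against 117.8 and 118.7 with IL-2 alone. Its difference of 0.78 ± 0.19 (adjusted p = 0.0375) was 0.46 within the high-intensity set and 1.10 within the low-intensity set. Without replicate 2 of the dose it was 0.42 (adjusted p = 0.841), and leaving out IL-2 replicate 2, 3 or 4 ended the call too (adjusted p = 0.0823, 0.107 and 0.105). At 1 and 4 µM Cxcr3 gave 0.48 at both doses, which did not pass (adjusted p = 0.226 and 0.399).

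Ccr7 had 3086 and 3508 at 0.25 and 1 µM in the high-intensity set, against 2367 and 2516 with IL-2 alone. It had 1745, 1952, 2243 and 2480 from 0.0625 to 4 µM in the low-intensity set, against 1631 and 1625 with IL-2 alone, so it was higher at each higher dose. The difference was 0.49 ± 0.12 at 1 µM and 0.67 ± 0.16 at 4 µM (adjusted p = 0.0178 and 0.0194). The call at 1 µM ended without replicate 1 or 2 of the dose (adjusted p = 0.0901 and 0.353) and without IL-2 replicate 2 (adjusted p = 0.0503). With the intensity set as a random block neither passed (adjusted p = 0.423 and 0.137). S1pr5 had its highest group mean at 0.25 µM, with 520.9 in the high-intensity set against 414.3 and 389.5 with IL-2 alone, and 175.5 in the low-intensity set against 121.6 and 119.4. That difference of 0.46 ± 0.16 did not pass (adjusted p = 0.167), and at 4 µM S1pr5 gave -0.07. Klf2 had 455 and 763 at 0.25 and 1 µM in the high-intensity set, against 402.7 and 599.4 with IL-2 alone. It had 240.7, 290.4, 359.3 and 266.2 from 0.0625 to 4 µM in the low-intensity set, against 242.6 and 287.2 with IL-2 alone. Its highest values were at 1 µM in both sets. The fitted differences of Klf2 were 0.01 at 0.25 µM, 0.54 at 1 µM (adjusted p = 0.187) and 0.05 at 4 µM. At 1 µM Klf2 passed after quantile normalization (adjusted p = 0.0201) and with only the groups compared in the fit (adjusted p = 0.0157). Ccr2 had 1424 and 2176 at 0.25 and 1 µM in the high-intensity set, against 1192 and 1490 with IL-2 alone, and 311.2 to 461.8 over the 4 doses in the low-intensity set, against 404.8 and 464.5. It gave -0.03, 0.21 and 0.29 at 0.25, 1 and 4 µM.

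By the slope over the 4 JAK1 inhibitor doses, 3 of 8 members rose with dose, where 0.815% of all genes rose. Cxcr4 rose by 0.36 ± 0.06, Cx3cr1 by 0.40 ± 0.08 and S1pr1 by 0.41 ± 0.07 on the log2 scale per 4-fold step (adjusted p = 0.00419, 0.00892 and 0.00267). Ccr7 gave 0.17 ± 0.06 (adjusted p = 0.122). Cxcr3 and S1pr5 had slopes of -0.05 and -0.12, not called. The 0.0625 and 4 µM ends of this slope are 1 sample each.

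**Figure D2:**
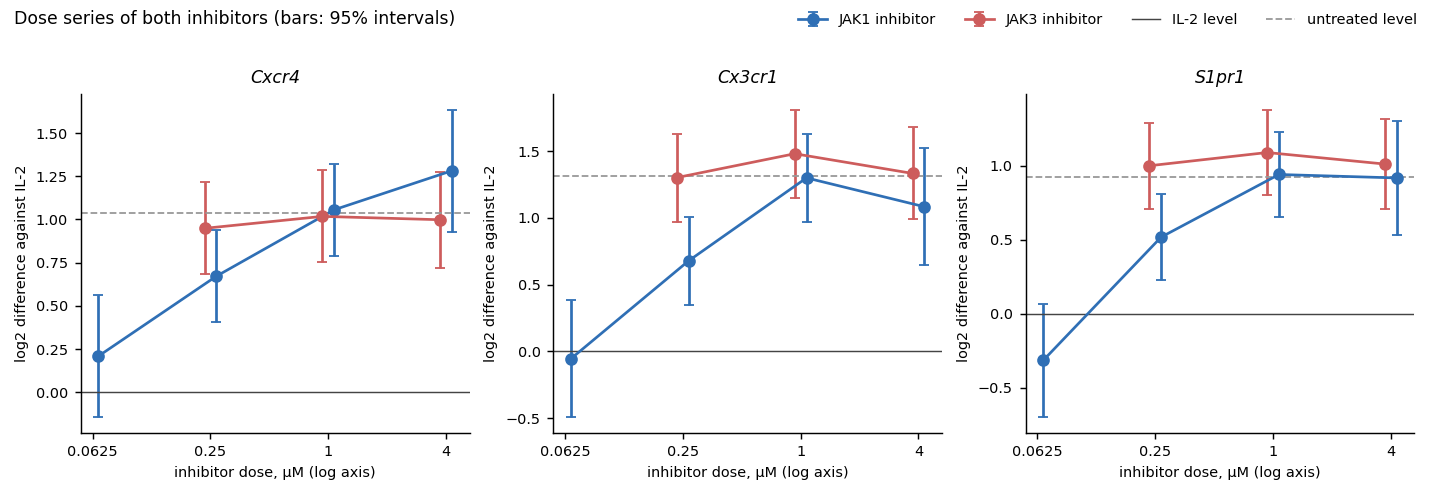
Log2 difference from IL-2 alone of Cxcr4, Cx3cr1 and S1pr1 at each dose (log axis, µM) of the JAK1 and JAK3 inhibitors, with 95% intervals, the IL-2 level at 0 and the untreated level dashed. The JAK1 inhibitor series starts at 0.0625 µM, in 1 sample, at 0.21, -0.06 and -0.32. At 0.25 µM, the lowest dose of both, the values are 0.67, 0.68 and 0.52 with the JAK1 inhibitor. With the JAK3 inhibitor they are 0.95, 1.30 and 1.00, and none of these genes was called between the inhibitors at this dose.

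At matched doses 0 of 8 members differed between the JAK1 and the JAK3 inhibitor by limma. At 0.25 µM 0.451% of all genes differed, and 3 members had an unadjusted p under 0.05. These were Cx3cr1, lower with the JAK1 inhibitor by -0.62 (95% interval -1.004 to -0.242, adjusted p = 0.21), S1pr1 at -0.48 (-0.82 to -0.15, adjusted p = 0.351) and S1pr5 at 0.41 (0.03 to 0.78, adjusted p = 0.686). With only these groups in the fit 3 members passed at 0.25 µM, namely Cx3cr1 (adjusted p = 0.00419), S1pr1 (adjusted p = 0.0258) and Klf2 (-0.45, adjusted p = 0.0384), and after quantile normalization S1pr1 did (-0.43, adjusted p = 0.036). Cx3cr1 intensities there were 437.3 and 107.6 with the JAK1 inhibitor, against 588.2 and 189.7 with the JAK3 inhibitor (high- and low-intensity set). Monocyte and macrophage markers were lower with the JAK1 inhibitor at this dose in 6 of 13. Their sums were 4991 to 5280, against 7751 to 8810 with the JAK3 inhibitor. Of 11 NK cell markers 3 were higher with the JAK1 inhibitor at this dose and 0 lower.

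At 1 and 4 µM 0% of genes differed between the inhibitors, and 0 members had an unadjusted p under 0.05. The intervals at 1 µM still allow differences: for Cxcr4 0.04 (-0.27 to 0.35), for Cx3cr1 -0.18 (-0.56 to 0.20), for S1pr1 -0.15 (-0.48 to 0.19) and for Ccr7 0.01 (-0.29 to 0.30). The widest at 4 µM were those of Ccr2 (-0.08, -0.84 to 0.69) and Klf2 (-0.54, -1.15 to 0.08). Averaged over 0.25 and 1 µM, 0 members and 0.213% of genes were called, with 4 members at an unadjusted p under 0.05. They were Cx3cr1 (-0.40, adjusted p = 0.504), S1pr1 (-0.32, adjusted p = 0.766), Cxcr3 (0.33) and S1pr5 (0.29). The inhibitor comparisons with IL-2 share the same IL-2 samples, so they are not independent of each other. The comparison of IL-2 with untreated cells uses these samples too, with the opposite sign. A gene's fall with IL-2 and its higher level with an inhibitor, or the reverse, thus rest in part on the same values.

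**Figure D3:**
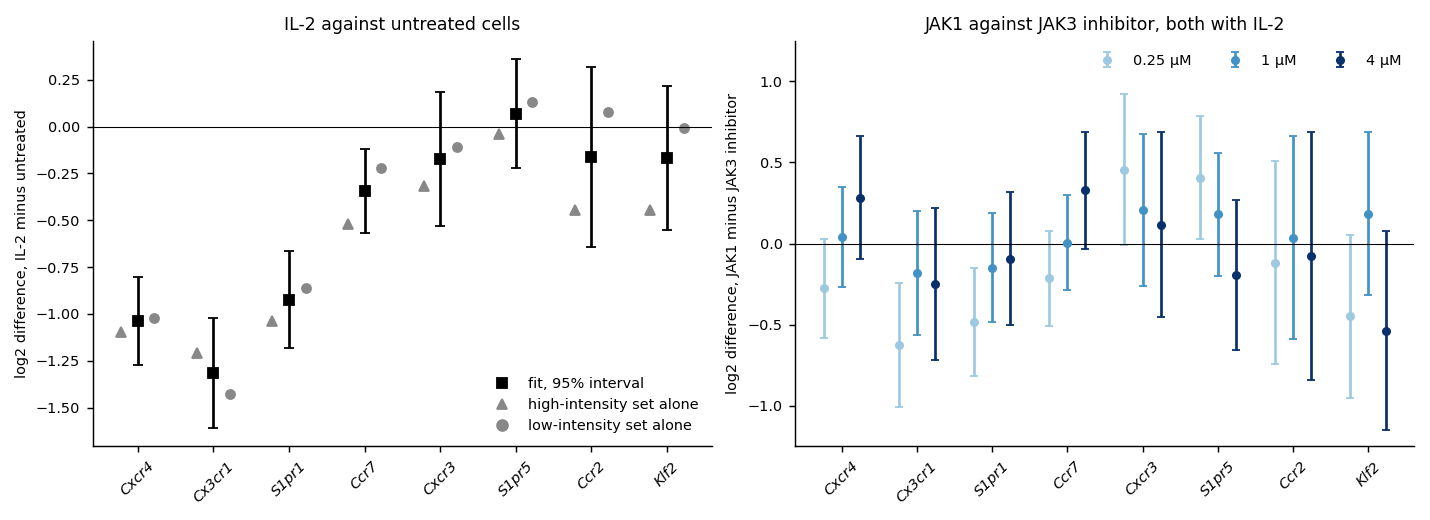
Log2 differences of the 8 members with 95% intervals: IL-2 minus untreated on the left, with values within each intensity set in grey, and JAK1 minus JAK3 inhibitor at 3 doses on the right. Cxcr4, Cx3cr1 and S1pr1 lie near or below -0.92 on the left, and on the right the intervals of Cx3cr1, S1pr1 and S1pr5 at 0.25 µM leave out 0 before adjustment.

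With IL-2 and 4 µM of either inhibitor, 0 members and 0% of all genes differed from untreated cells by limma, and 0 members had an unadjusted p under 0.05. For the JAK1 inhibitor (1 sample against 3) the differences were 0.24 for Cxcr4 (interval -0.11 to 0.60), -0.23 for Cx3cr1 (-0.68 to 0.21) and -0.01 for S1pr1 (-0.40 to 0.38). For the JAK3 inhibitor (2 samples against 3) they were -0.04 for Cxcr4 (-0.32 to 0.25), 0.02 for Cx3cr1 (-0.34 to 0.37) and 0.09 for S1pr1 (-0.22 to 0.40). These intervals leave out a difference of the size that IL-2 alone showed for the 3 genes. Klf2 at 0.42 (-0.05 to 0.89) was the member farthest from untreated with the JAK3 inhibitor, and Ccr7 at 0.33 (-0.01 to 0.67) with the JAK1 inhibitor.

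Ordered by set-adjusted group mean, Cxcr4 was highest with the JAK1 inhibitor at 4 µM (10.39) and lowest with IL-2 alone (9.11 ± 0.07, SD, n = 4). The untreated mean lay between those of the JAK1 and the JAK3 inhibitor at 1 µM (10.15 ± 0.14, SD, n = 3). Of the 95% intervals between neighbours in the order, only that between the JAK1 inhibitor at 0.25 and 0.0625 µM left out 0 (0.46, 0.08 to 0.85). These intervals are unadjusted, and the neighbours were taken after ordering. Cx3cr1 and S1pr1 were both highest with the JAK3 inhibitor at 1 µM (7.60 and 9.49) and lowest with the JAK1 inhibitor at 0.0625 µM (6.07 and 8.09). The only step whose unadjusted interval left out 0 was that between the JAK1 inhibitor at 0.25 µM and IL-2 alone. It was 0.68 (0.35 to 1.01) for Cx3cr1 and 0.52 (0.23 to 0.81) for S1pr1. For S1pr1 this difference was not called by limma (adjusted p = 0.0558).

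The order of the other members differed. Ccr7 ran from 11.28 with the JAK1 inhibitor at 4 µM to 10.60 ± 0.08 with IL-2 alone (SD, n = 4). Cxcr3 and S1pr5 were both highest with the JAK1 inhibitor at 0.25 µM (7.68 and 7.36) and next with that inhibitor at 0.0625 µM (7.44 and 7.17). Cxcr3 was lowest with IL-2 alone (6.90 ± 0.03, SD, n = 4) and S1pr5 with the JAK1 inhibitor at 4 µM (6.83). Ccr2 ranged from 8.93 with the JAK3 inhibitor at 4 µM to 8.28 with the JAK1 inhibitor at 0.0625 µM, and Klf2 from 8.59 to 7.91 between the same groups. For these 5 genes the intervals between neighbouring groups all held 0.

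Across the 19 samples, which share the fitted set adjustment and the treatment groups, the set-adjusted values of Cx3cr1 and S1pr1 had a Pearson r of 0.97. Cxcr4 had an r of 0.94 with each of them and 0.88 with Ccr7. Klf2 had an r of 0.69 with S1pr1. S1pr5 had an r of -0.01 with S1pr1 and 0.83 with Cxcr3. These are descriptions of samples that fall into treatment groups, given without a test.

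The genes most like each member by Pearson r over the 19 samples, passing over predicted genes, were the following. For Cxcr4 they were Sort1 (0.98), Dpep2 and Niban1, for Cx3cr1 Alox5ap (0.97), Lrp1 and Treml4, and for S1pr1 Smpdl3a (0.97), Rcbtb2 and Ftl1. For Ccr7 they were Apbb1ip (0.93), Nop53 and Scd1, for Cxcr3 Vrk3 (0.88), Sipa1 and Ttll1, and for S1pr5 Klf12 (0.90), Rap1gap2 and Rbpms. Klf2 was closest to Lmbr1l (0.97), Man2b1 and Slc37a2, and Ccr2 to Apc (0.83), Rap1a and Cd84.

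Related genes were counted from lists chosen by function, to be read against the shares of all genes given above for IL-2. At 1 µM against IL-2 alone, 2.85% of all genes were higher and 2.31% lower with the JAK1 inhibitor, and 2.86% and 3.69% with the JAK3 inhibitor. Of 19 measured other chemoattractant receptors, 1 rose with IL-2 and 1 fell (median -0.13). Against IL-2 alone 2 were higher and 0 lower at 1 µM of either inhibitor. Ccrl2, a chemerin-binding receptor gene, rose by 0.76 ± 0.20 (adjusted p = 0.0207), while Cmklr1, the signalling chemerin receptor gene, gave 0.68 ± 0.21, which was not called (adjusted p = 0.0525). Gpr183, the oxysterol receptor gene that positions lymphocytes in spleen and lymph nodes, differed by -0.97 ± 0.13 (adjusted p = 2.42e-05). Gpr183 was higher than with IL-2 alone at all 3 JAK3 inhibitor doses (0.90, 0.91 and 0.77 at 0.25, 1 and 4 µM) and with the JAK1 inhibitor at 1 µM (0.84). Ccr6, a receptor gene for CCL20, gave -0.72 with IL-2, which was not called, and was higher than with IL-2 alone with the JAK1 inhibitor at 1 µM (1.09) and the JAK3 inhibitor at 0.25 and 1 µM (1.01 and 0.89).

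Of 10 genes for the members' ligands, 3 rose with IL-2 and 0 fell (median 0.02). Against IL-2 alone 3 were lower and 0 higher at 1 µM of either inhibitor. Those that rose were the CXCR3 ligand genes Cxcl9 (4.52 ± 0.23), Cxcl10 (3.48 ± 0.27) and Cxcl11 (0.76 ± 0.14). With the JAK1 inhibitor at 1 µM all 3 were lower than with IL-2 alone (-4.13, -4.15 and -0.59), and with the JAK3 inhibitor at 1 µM likewise (-3.68, -3.09 and -0.75). Cx3cl1, the gene of fractalkine, gave -0.34 ± 0.14 with IL-2 and was not called (adjusted p = 0.172). It was higher than with IL-2 alone with the JAK3 inhibitor at 4 µM (0.61, adjusted p = 0.0284).

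Of 11 genes of the sphingosine-1-phosphate pathway, 1 rose with IL-2 and 0 fell (median -0.05). Against IL-2 alone 1 was lower and 0 higher with the JAK1 inhibitor at 1 µM, and 1 lower and 1 higher with the JAK3 inhibitor. The gene that rose was Cd69, at 1.88 ± 0.18 (adjusted p = 6.07e-07), whose product binds S1PR1 and draws it off the cell surface. Cd69 was lower than with IL-2 alone with the JAK1 inhibitor at 0.25, 1 and 4 µM (-1.80, -1.71 and -2.20) and with the JAK3 inhibitor at the same doses (-1.75, -2.06 and -2.21). At 0.25 µM the JAK1 minus JAK3 inhibitor difference of Cd69 was -0.05 ± 0.24 and was not called (adjusted p = 1.00). The exporter gene Spns2 gave -0.36 with IL-2, not called, and was higher than with IL-2 alone with the JAK3 inhibitor at 1 µM (0.49) and 4 µM (0.75).

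Of 17 genes that couple or switch off these receptors, 2 rose with IL-2 and 2 fell (median 0.04). At 1 µM 3 were higher and 1 lower than with IL-2 alone with the JAK1 inhibitor, and 3 higher and 2 lower with the JAK3 inhibitor. Rgs16 rose by 1.40 ± 0.16 and Rgs2 differed by -1.18 ± 0.15; both encode proteins that shorten G protein signals. Rgs1, a further member of that family, had a difference of 0.64 ± 0.16, and the beta-arrestin gene Arrb1, whose product uncouples active receptors, one of -0.89 ± 0.17. At 1 µM Rgs16 was lower than with IL-2 alone with the JAK1 inhibitor (-1.02) and the JAK3 inhibitor (-1.39), and Rgs2 (1.10 and 1.34) and Arrb1 (1.14 and 1.05) were higher.

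Of 17 transcriptional regulators and homing targets of KLF2 or FOXO1, 3 rose with IL-2 and 4 fell (median 0.04). At 1 µM 4 were higher and 2 lower than with IL-2 alone with the JAK1 inhibitor, and 4 higher and 3 lower with the JAK3 inhibitor. Tbx21 (1.62 ± 0.19), the gene of the NK cell factor T-bet, which activates S1pr5 in NK cells, and Id2 (1.36 ± 0.14), the gene of an inhibitor of E proteins, rose. Il7r (-1.85 ± 0.17), the IL-7 receptor gene, and Zeb2 (-0.76 ± 0.12), the gene of a repressor active in mature NK cells, fell. At 1 µM Il7r was higher than with IL-2 alone with the JAK1 inhibitor (1.62) and the JAK3 inhibitor (1.88), and Tbx21 lower (-1.15 and -1.40).

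**Figure D4:**
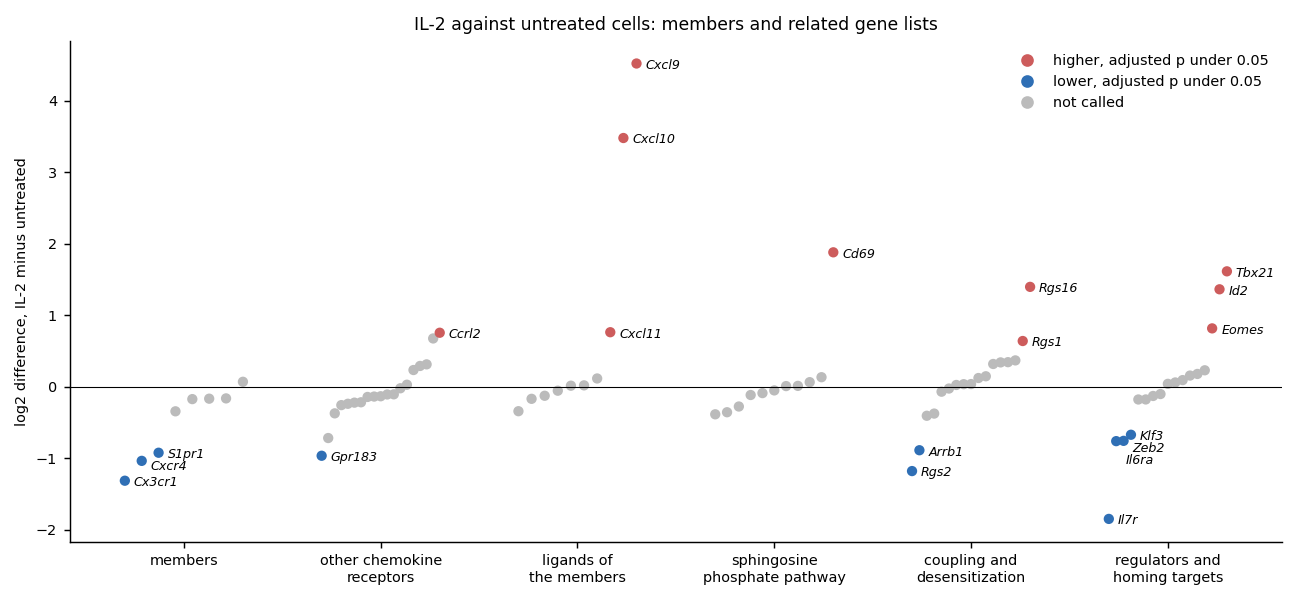
Log2 difference, IL-2 minus untreated, of each of the 8 members and of each measured gene on 5 related lists, in order of size within a list, with called genes coloured and named. Of the chemokine and exit genes Cx3cr1, Cxcr4 and S1pr1 are called lower, Cxcl9 (4.52) has the largest rise of the genes plotted, and Il7r (-1.85) the largest fall.

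Markers of other cells in the preparation also moved with IL-2. Of the monocyte and macrophage markers Adgre4 (-3.08 ± 0.19), Clec4a3 (-2.95 ± 0.21) and Vcan (-2.95 ± 0.20) fell, and Fcgr1 (0.22), named after its value was seen, was the 1 of 13 that did not fall. Of 12 neutrophil markers 7 fell (median -0.69), with sums of 4517 to 4906 in IL-2 samples against 7209 to 8039 in untreated samples. Of 10 B cell markers 4 fell (median -0.41; 6275 to 6875 against 7650 to 8604 untreated). Of 10 dendritic cell markers 2 rose and 2 fell (761.4 to 862.5 with IL-2 against 1020 to 1178 untreated), and 0 of 11 T cell markers changed by limma (1804 to 1975 against 1448 to 1979). Of 11 NK cell markers 9 rose (median 1.41; 9252 to 11970 with IL-2 against 3210 to 4018 untreated), among them Nkg7 (2.35), the gene of a protein of cytotoxic granules. An array gives no true zero, so none of these markers can be called absent.

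Across the 19 samples Cx3cr1, Cxcr4 and S1pr1 were lowest in the IL-2 samples and the JAK1 inhibitor sample at 0.0625 µM. These samples also had the lowest sums of monocyte and macrophage, B cell and dendritic cell markers, and the highest sums of NK cell markers. Ccr2 set-adjusted values were 8.20 to 8.86 with IL-2, against 8.31 to 9.05 in untreated cells, and overlapped over all samples, while in the high-intensity set both IL-2 samples were below the 1 untreated sample. How much of each member's signal came from NK cells and how much from other cells was not tested.

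**Figure D5:**
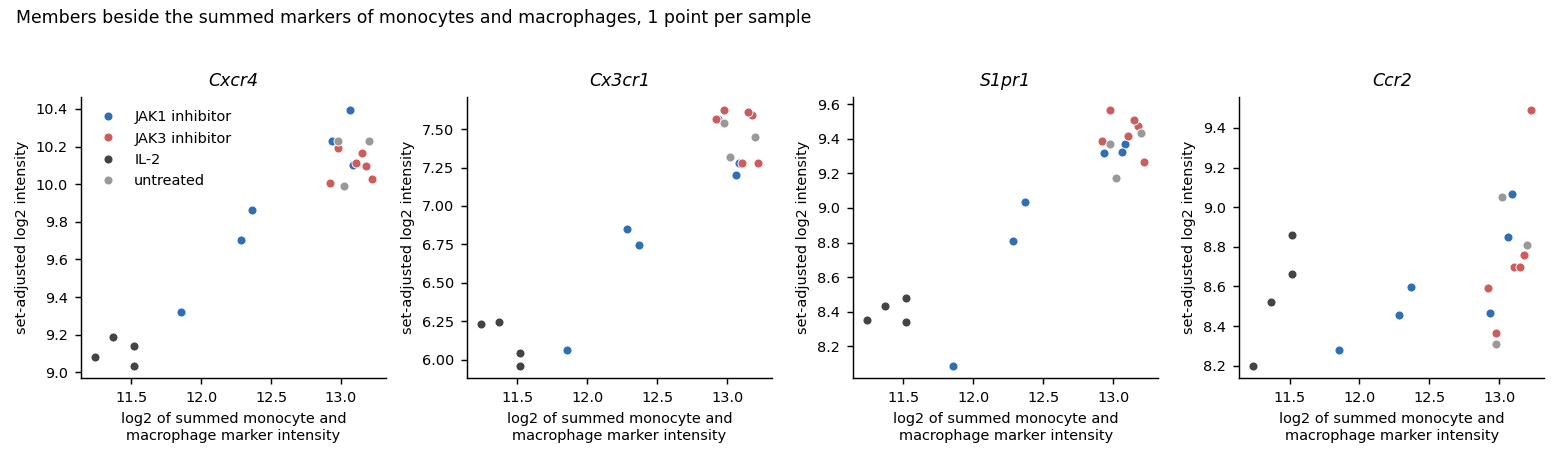
Set-adjusted log2 intensity of Cxcr4, Cx3cr1, S1pr1 and Ccr2 against the log2 summed intensity of 13 monocyte and macrophage markers, 1 point per sample, coloured by treatment. The IL-2 samples lie at the low end of the marker axis (sums of 2416 to 2933) and are low for the first 3 genes, while Ccr2 values overlap between IL-2 and untreated samples.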

How the data were processed

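The authors deposited linear intensities per probe set of 19 arrays, made with RMA in Affymetrix Power Tools, per the submitters' processing notes (versions not given in the sources used here). Of 24922 probe sets, 21425 carried 1 gene symbol in the platform annotation, 1399 several and 2098 none. For genes with several probe sets (921) the brightest over all samples was kept, and 19752 genes were tested. The deposited intensities lay on 2 scales, with 20.0% of probe sets tied in at least 3 samples of the high-intensity set and 0% in the low-intensity set, and why they differ was not tested. Of the members' values, 4 were tied with that of another sample.

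The deposited intensities were turned into log2 values here and fitted with limma 3.58.1 (R 4.3.3, statmod 1.5.0) on group means plus a term for the scale set, with eBayes and an intensity trend. Groups came from the labels. Each of 16 comparisons was adjusted by the Benjamini-Hochberg method over all 19752 genes. A group of 1 sample was assumed to vary like the others. Dose slopes are per 4-fold step. The fit was tested on simulated data.

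The text names all 8 members, from each gene list up to 4 genes and from each marker list up to 3 by smallest p, Cish and Socs1 as treatment targets, and the 3 genes most like each member by Pearson r. Members and lists were chosen with earlier results of these data known. Tables and figures used Python 3.11.15, pandas 2.3.3, numpy 2.4.6 and matplotlib 3.10.9. Alternatives were quantile normalization, other treatments of the scale set, a replicate block, other probe and gene filters, only the groups compared, and leaving out each sample. Some list entries are not reported here.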

Additional observations from a re-analysis of the deposited data

How the results depend on the processing

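Of 1848 alternative values of members, 1725 stayed on their side of the threshold, 29 passed only there and 94 only in the reported fit, and no called direction turned. Reported counts of called members are in brackets. With title form in place of the intensity set, 0 were called for IL-2 (3), the JAK3 inhibitor at 0.25 µM (4), 1 µM (4) and 4 µM (3), the JAK1 inhibitor at 0.25 µM (3), 1 µM (4) and 4 µM (4), and the JAK1 slope (3); this sets JAK3 inhibitor 4 µM replicate 1 among samples of the other scale and moved that median over all genes by -0.83. With the high-intensity set only, 0 were called for IL-2 and at 0.25 and 1 µM of each inhibitor. With the low-intensity set only, 1 was called for the JAK3 inhibitor at 0.25 and 1 µM and the JAK1 inhibitor at 1 and 4 µM, and 0 for the JAK1 inhibitor at 0.25 µM and the JAK1 slope; both fit fewer samples. Quantile normalization called 5 with the JAK3 inhibitor at 4 µM, 6 with the JAK1 inhibitor at 0.25 µM, and 1, S1pr1, between the inhibitors (0) at 0.25 µM and over both doses. Fitting only the groups compared called 5 with the JAK1 inhibitor at 0.25 µM, 3 between the inhibitors at 0.25 µM and 2 over both doses. Leaving out 1 sample gave 3 to 4 members for IL-2, for each JAK3 inhibitor dose and for the JAK1 inhibitor at 1 µM, 0 to 3 for the JAK1 inhibitor at 0.25 µM, 4 at 4 µM and 3 for the JAK1 slope.

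The median correlation of deviations of same-numbered samples was -0.17 over 23 pairs within a set (7 over 0.1) and 0.34 over 15 pairs across sets (9 over 0.1), against 0.04 for different numbers across sets, and 7 of 17 samples matched best with their own number. Pairs under 0.1 remained. In a group of 2 samples the fit makes the deviations exact opposites, so these correlations cannot settle whether replicates were paired. No pairing was taken in the reported fit. The replicate block called 0 members with the JAK1 inhibitor at 0.25 µM and 1 between the inhibitors there, Cx3cr1 (adjusted p = 0.0488). It called Klf2 with the JAK3 inhibitor at 0.25 and 4 µM (0.0268 and 0.0172) and the JAK1 inhibitor at 1 µM (0.0111), and lost the Ccr7 calls (0.127 and 0.154 with the JAK3, 0.128 and 0.167 with the JAK1 inhibitor).

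Counts of all genes called were, for IL-2 (reported 1808), 269 by title form, 962 and 0 in the low- and high-intensity sets (1264 unadjusted), 3233 with the block and 3069 without untreated replicate 2. For the JAK3 inhibitor at 0.25, 1 and 4 µM (987, 1293 and 1483) they were 90, 169 and 8907 by title form, 113, 261 and 638 in the low- and 0 at the lower doses in the high-intensity set, 1785, 2163 and 2588 by quantile normalization, 2258 and 2582 at 0.25 and 1 µM with only the groups compared, 849 and 577 at 1 and 4 µM with the block, 309 and 322 at 0.25 µM and 563 and 468 at 1 µM without replicate 1 or 2. For the JAK1 inhibitor at 0.0625, 0.25, 1 and 4 µM (4, 445, 1019 and 745) they were 0, 25, 134 and 112 by title form, 9, 53, 257 and 315 in the low-intensity set, 13, 1202, 1818 and 1395 by quantile normalization, 351, 1770, 2092 and 1744 with only the groups compared, and 2, 134 and 404 at 0.0625, 0.25 and 4 µM with the block. Leaving out 1 sample gave 2 to 17 at 0.0625 µM, 32 to 723 at 0.25 µM, 256 at 1 µM without its replicate 2, and 493 at 4 µM without IL-2 replicate 3. Between the inhibitors at 0.25 µM (89) they ran from 0 in either set to 1114 with only the groups compared, over both doses (42) from 0 to 440, and for the slopes from 26 to 1890 (JAK1, 549) and 0 to 280 (JAK3, 30). Against untreated at 4 µM (0) they reached 2195 with the JAK3 inhibitor by title form and 78 with the JAK1 inhibitor with only the groups compared, and between the inhibitors 84 at 1 µM and 27 at 4 µM.

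The higher share of called genes was 71.7% for IL-2, 54.8%, 43.7% and 40.1% for the JAK3 inhibitor at 0.25, 1 and 4 µM, 32.4%, 55.2% and 30.2% for the JAK1 inhibitor at these doses, 29.3% for the JAK1 slope, and 52.8% and 71.4% between the inhibitors at 0.25 µM and over both doses. Quantile normalization moved it to 53.9% for IL-2, 50.9% for the JAK3 inhibitor at 4 µM, 45.4% and 47.9% for the JAK1 inhibitor at 0.25 and 4 µM, 49.2% for the slope and 53.6% between the inhibitors over both doses. The set as a random block gave 42.2% for the JAK3 inhibitor at 0.25 µM, 40.8% for the JAK1 inhibitor at 1 µM, 45.7% for the slope and 71.9% between the inhibitors at 0.25 µM. The replicate block gave 75.2%, 63.7% and 66.2% over the JAK3 inhibitor doses, 59% and 75.2% for the JAK1 inhibitor at 0.25 and 1 µM, 16.2% for the slope, and 34.2% and 54.3% between the inhibitors. Only the groups compared gave, for the last 3, 49.4%, 27.5% and 44.5%. The median over all genes moved by 0.11 for the JAK1 inhibitor at 4 µM under quantile normalization. The causes were not tested.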
